A study of Mus musculus with 9 samples.

Results

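The genes described here are 8 mouse genes that move phosphate across kidney cells or carry the hormone signals that set its reabsorption. They are the sodium-phosphate cotransporters Slc34a1, Slc34a3, Slc20a1 and Slc20a2, the phosphate exporter Xpr1, the co-receptor Kl (alpha-Klotho), the receptor Fgfr1 and the parathyroid hormone receptor Pth1r. They were chosen by name, and all 8 of 8 were found by their Ensembl identifiers among 55359 genes in a table of raw counts from whole kidney. All 8 had enough reads to be tested, within a total of 17179 genes tested.

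The study sequenced messenger RNA of kidneys in 9 samples, 3 in each of 3 groups. HFD-STZ DHZ samples came from mice put on a high-fat diet (49.0% of calories from fat) at 6 weeks of age and injected 2 times with the beta-cell toxin streptozotocin (STZ, 30 mg/kg, days 60 and 63 of the diet). After a high blood glucose was found on day 65, these mice received 50 mg/kg of dehydrozingerone (DHZ), a compound of ginger related to curcumin, orally for 2 weeks. HFD-STZ vehicle samples came from mice given the same diet and STZ but vehicle in place of DHZ. NCD vehicle samples came from mice on a control diet (11.32% of calories from fat) given vehicle. Mice of all 3 groups were 6 weeks old at the start. Groups were read from the sample titles, since the treatment field names the compound for every sample. Neither strain nor sex is given in the sources used here, nor is it said whether each sample was a separate animal, so the spread behind the p-values is that between samples, which may be technical. Each library has a different batch date, and the dates run group by group, so that batch cannot be told apart from group.

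Phosphate filtered in the glomerulus is taken back mainly in the proximal tubule. There the brush-border transporters encoded by Slc34a1 (NaPi-IIa) and Slc34a3 (NaPi-IIc) use the sodium gradient to bring it into the cell. Parathyroid hormone, acting on the receptor encoded by Pth1r, and the bone hormone FGF23, acting on FGFR1 bound to Klotho, both lower the amount of these transporters in the membrane. Klotho is made mostly in the distal convoluted tubule and also in the proximal tubule, and it is known to fall in many forms of kidney injury.

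Total counts per library were 15.1 to 47.5 M (M is the prefix mega), of which 2.13 to 15.2 M belonged to nuclear protein-coding genes. HFD-STZ vehicle replicate 2 stood apart, with the fewest such counts, 60.4% of its counts from mitochondrial genes (39.2% to 52.4% elsewhere) and the highest share of the nuclear RNA Malat1. Malat1 took 4.37%, 3.49% and 5.79% of the counts left without mitochondrial genes and unprocessed pseudogenes in HFD-STZ DHZ replicates 1 to 3, against 11.9%, 23.7% and 11.9% in HFD-STZ vehicle and 14.8%, 6.77% and 6.00% in NCD vehicle. Transcripts of the Y chromosome were present in HFD-STZ DHZ replicate 3, HFD-STZ vehicle replicates 2 and 3 and NCD vehicle replicate 1, so each group held libraries of both kinds. Kidney markers were present: all 14 proximal tubule and all 8 distal convoluted and connecting tubule markers were detected. Values per library are given as CPM, counts per M counts of the library size scaled by trimmed mean of M values (TMM). Of 4 adrenal cortex markers 3 were detected, with Cyp21a1 at 0 in every library. Their sum was 0.405 to 1.50 CPM per library, 96.2% of it from Star. Comparisons used edgeR's quasi-likelihood test over all genes with Benjamini-Hochberg adjustment, and calls were made where the adjusted p was below 0.05.

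Compared per length of exon, the genes formed a steep order. The length was that of all annotated exons of a gene joined, for example 17880 bases for Xpr1 and 5580 for Slc20a1. It need not be that of the transcript present, so the order depends on it. By CPM without length Xpr1 averaged 26.3, 25.1 and 22.4 in HFD-STZ DHZ, HFD-STZ vehicle and NCD vehicle. Slc20a1 averaged 21.2, 16.4 and 11.8 CPM in these groups. Mean levels over the 9 libraries were 77.5 CPM per kb for Slc34a1, 21.2 for Pth1r, 5.82 for Kl and 2.95 for Slc20a1. Below these lay Slc20a2 at 1.39, Xpr1 at 1.38, Fgfr1 at 1.37 and Slc34a3 at 0.878 CPM per kb. Slc34a1 exceeded Pth1r, Pth1r exceeded Kl and Slc20a1 exceeded Slc20a2 in 9 of 9 libraries, and Kl exceeded Slc20a1 in 8 of 9. Slc20a2, Xpr1 and Fgfr1 had no fixed order, since Slc20a2 was above Xpr1 in 6 of 9 libraries and Xpr1 above Fgfr1 in 4 of 9. Only in HFD-STZ DHZ were Xpr1 (1.45 to 1.50 CPM per kb) and Fgfr1 (1.04 to 1.21 CPM per kb) apart without overlap. Slc34a3 varied most of the 8, with 17.8 times as much per length in its highest library as in its lowest, while Fgfr1, Xpr1 and Slc20a2 varied by 1.56, 1.58 and 1.60 times.

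**Figure D1:**
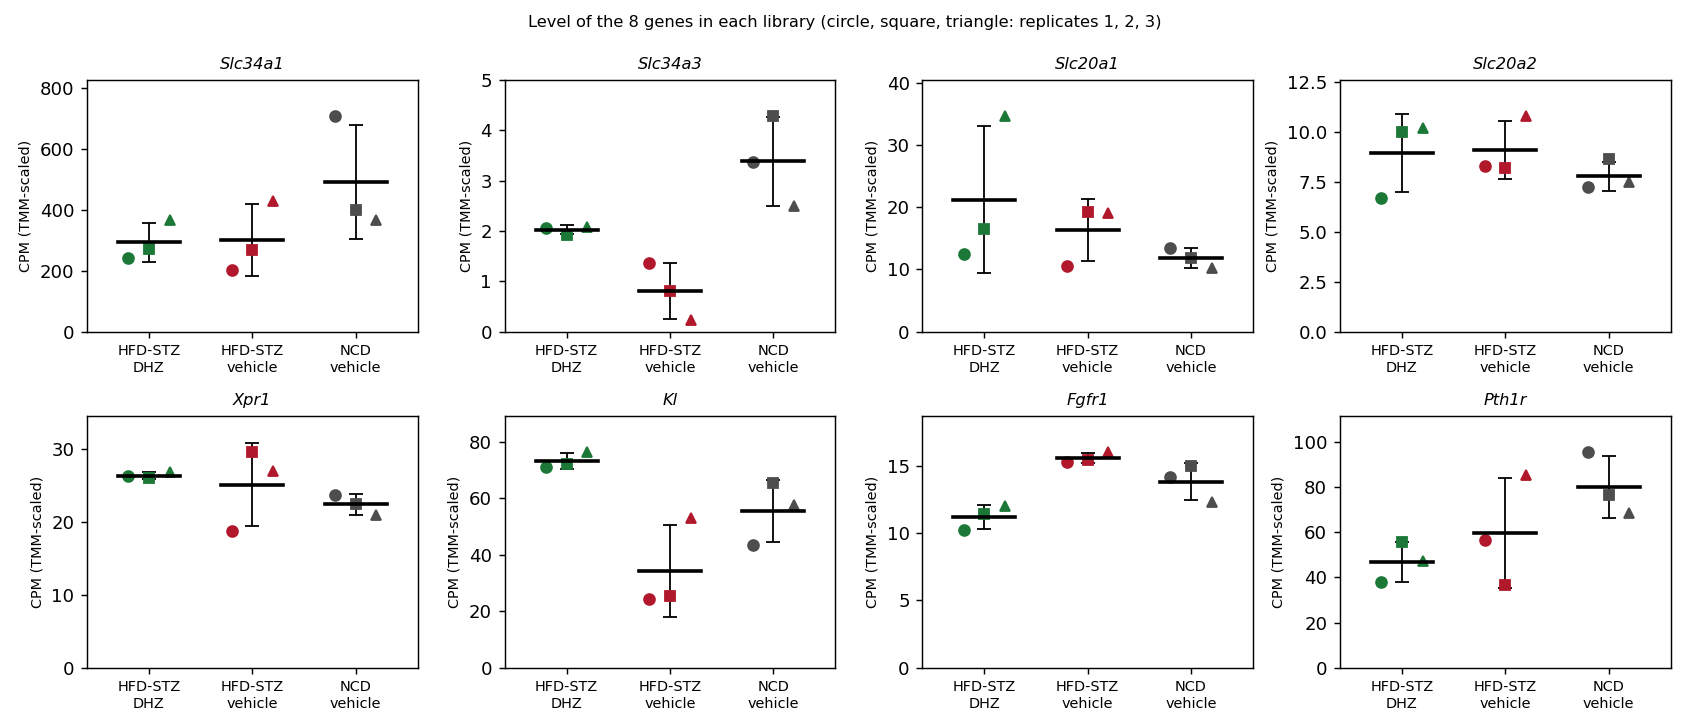
CPM (TMM-scaled, linear axes from 0) of the 8 genes in each of the 9 libraries, with the group mean (line) and SD (bar), n = 3. Kl lies between 70.9 and 76.2 CPM in HFD-STZ DHZ, above every library of HFD-STZ vehicle (24.5 to 53.0) and NCD vehicle (43.6 to 65.3), and Slc34a3 is lowest in HFD-STZ vehicle.

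Between HFD-STZ DHZ and HFD-STZ vehicle 1 of the 8 genes was called, Kl, which rose with treatment. Over all genes 22.1% were called in this comparison, so 1 of 8 is no more than the background share. DESeq2 called 3 of the 8 and limma-voom 2, and 3 had an unadjusted p below 0.05 (37.1% of all genes). The groups did not overlap for 3 of the 8 (39.8% of all genes). Between HFD-STZ vehicle and NCD vehicle 0 of 8 were called by edgeR in either direction (0.0524% of all genes, 0.0233% higher and 0.0291% lower), with 1 called by DESeq2 and 0 by limma-voom. An unadjusted p below 0.05 was found for 2 of 8 (7.43% of all genes), and the groups did not overlap for 2 (11.4% of all genes). Between HFD-STZ DHZ and NCD vehicle 0 of 8 were called by edgeR (13.7% of all genes) and 0 by DESeq2 or limma-voom. An unadjusted p below 0.05 was found for 2 of 8 (31.7% of all genes), and the groups did not overlap for 5 (44.1% of all genes). The comparisons share libraries, so their values are given side by side and are not independent. The median log2 fold change of the 8 genes was 0.02 in the first of these comparisons, −0.13 in the second and −0.05 in the last, beside medians over all genes of 0.04, 0.00 and 0.01.

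**Figure D2:**
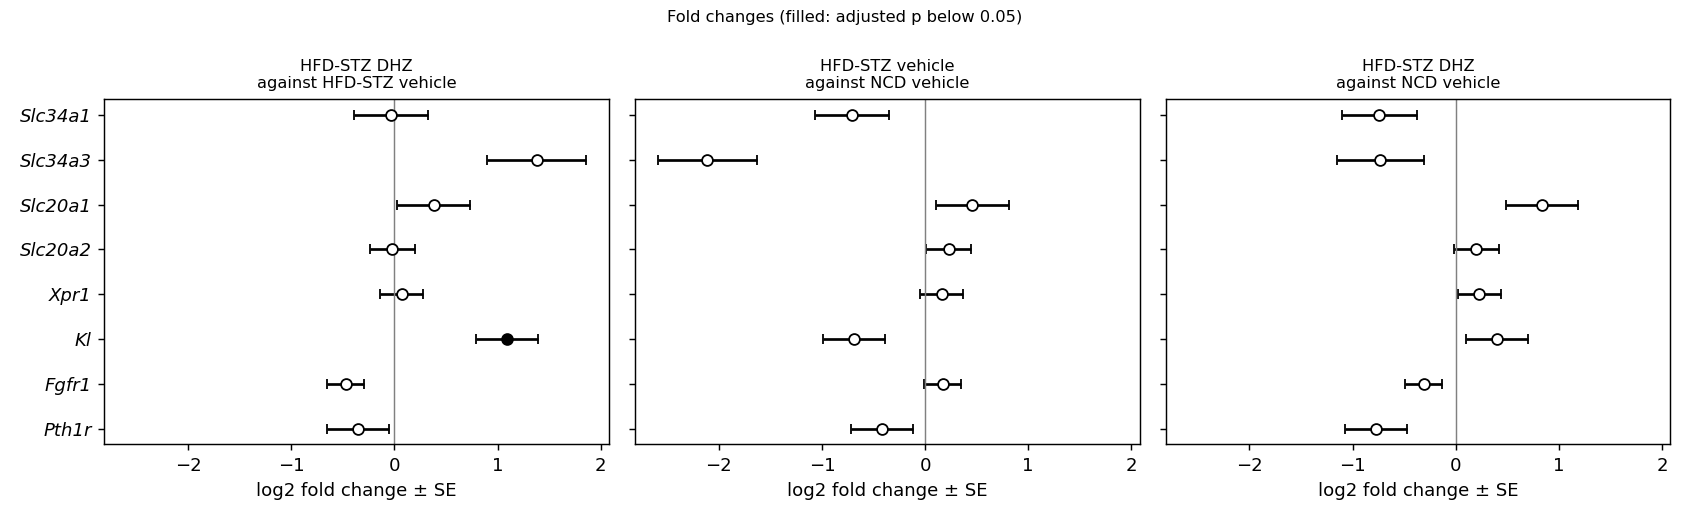
Log2 fold change ± SE of each of the 8 genes in the 3 comparisons, filled where the adjusted p was below 0.05. Kl in HFD-STZ DHZ against HFD-STZ vehicle (1.09) is the filled point, and Slc34a3 has the estimates farthest from 0 in that panel (1.38) and in the panel of HFD-STZ vehicle against NCD vehicle (−2.11).

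Kl encodes the membrane protein that turns FGFR1 into a receptor for FGF23, and its shed ectodomain circulates. Kl stood at 70.9, 72.1 and 76.2 CPM in HFD-STZ DHZ replicates 1 to 3, against 24.5, 25.4 and 53.0 CPM in HFD-STZ vehicle. The groups did not overlap, as for 20.9% of all genes in this direction, and the treated libraries lay close together while HFD-STZ vehicle replicate 3 stood above the other two libraries of its group. Kl averaged 73.1 ± 2.78 CPM in HFD-STZ DHZ and 34.3 ± 16.2 CPM in HFD-STZ vehicle (SD, n = 3 each), and the log2 fold change was 1.09 (SE 0.30, adjusted p = 0.024, edgeR). NCD vehicle libraries held 43.6, 65.3 and 57.5 CPM (55.5 ± 11.0), overlapping HFD-STZ vehicle. They were below all of HFD-STZ DHZ, as for 22.4% of all genes. The log2 fold change of Kl against NCD vehicle was 0.40 in HFD-STZ DHZ (SE 0.30, adjusted p = 0.38) and −0.69 in HFD-STZ vehicle (SE 0.30, adjusted p = 0.65), neither called. In whole kidney, fewer cells of a type and less RNA per cell cannot be told apart.

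The call of Kl did not hold when any of 5 of the 6 libraries compared was left out. Without HFD-STZ vehicle replicate 1 or 2 the log2 fold change was 0.88 (adjusted p = 0.072) or 0.92 (adjusted p = 0.063), and without HFD-STZ DHZ replicate 1, 2 or 3 it was 1.12 (adjusted p = 0.071), 1.10 (adjusted p = 0.070) or 1.06 (adjusted p = 0.054). Without HFD-STZ vehicle replicate 3 it was 1.56 (adjusted p = 0.0066). With library size only in place of TMM, which moved the median of all genes to 0.81, it was 1.88 (adjusted p = 0.031). Among the libraries with Y-linked transcripts Kl held 76.2 CPM in HFD-STZ DHZ, 25.4 and 53.0 CPM in HFD-STZ vehicle and 43.6 CPM in NCD vehicle. Among those without, it held 70.9 and 72.1 CPM in HFD-STZ DHZ, 24.5 CPM in HFD-STZ vehicle and 65.3 and 57.5 CPM in NCD vehicle. In either set the treated libraries were highest, but each set held too few libraries to compare groups. With a term for Y-linked transcripts in the fit the log2 fold change was 1.12 (adjusted p = 0.024). The part of Y-linked transcripts in the difference cannot be told from so few libraries and was not tested beyond that fit.

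Other features of the libraries are set beside Kl here, mainly for the HFD-STZ groups, some without overlap between the groups and some with it. Replicates 1 and 3 of HFD-STZ vehicle both had 11.9% Malat1 and held 24.5 and 53.0 CPM of Kl. Their nuclear protein-coding counts were 3.94 and 6.52 M. Replicate 2 had 23.7% Malat1, 25.4 CPM of Kl and 2.13 M such counts. NCD vehicle replicates 1 to 3 had 14.8%, 6.77% and 6.00% Malat1 and 43.6, 65.3 and 57.5 CPM of Kl. Their nuclear protein-coding counts were 4.59, 5.48 and 8.49 M. The Malat1 share was 3.49% to 5.79% in HFD-STZ DHZ and 11.9% to 23.7% in HFD-STZ vehicle, and nuclear protein-coding counts were 7.63 to 15.2 M in HFD-STZ DHZ and 2.13 to 6.52 M in HFD-STZ vehicle. The summed level of 6 podocyte markers, all detected and 37.6% from Podxl, was 72.4 to 92.1 CPM in HFD-STZ DHZ and 24.0 to 45.2 CPM in HFD-STZ vehicle. Of these markers 3 were called higher, beside 10.0% of all genes, with 4 estimates above 0 and 2 below. The summed level of 5 white adipocyte markers, all detected and 93.4% from Fabp4, was 25.1 to 76.8 CPM in HFD-STZ DHZ and 10.3 to 20.9 CPM in HFD-STZ vehicle. Of the 4 adipocyte markers tested 1 was called higher. Of 5 thick ascending limb markers, 2 were called higher (Cldn16 and Kcnj1), with a median log2 fold change of 1.15, and their sums overlapped, at 1009 to 2178 CPM in HFD-STZ DHZ and 658 to 1579 CPM in HFD-STZ vehicle. The 8 distal convoluted and connecting tubule markers summed to 911 to 1605 CPM in HFD-STZ DHZ and 1198 to 1660 CPM in HFD-STZ vehicle, and the 14 proximal tubule markers to 2885 to 3320 CPM in HFD-STZ DHZ and 2265 to 5684 CPM in HFD-STZ vehicle. Of the distal list 1 was called higher (Trpv5) and 2 lower (Trpm6 and Slc8a1). Of the proximal list 2 were called higher (Slc5a2 and Slc7a7) and 1 lower (Slc4a4). Beside the counts of each of these lists, 10.0% of all genes were called higher and 12.0% lower in this comparison. The part of any of these features in the difference in Kl was not tested.

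**Figure D3:**
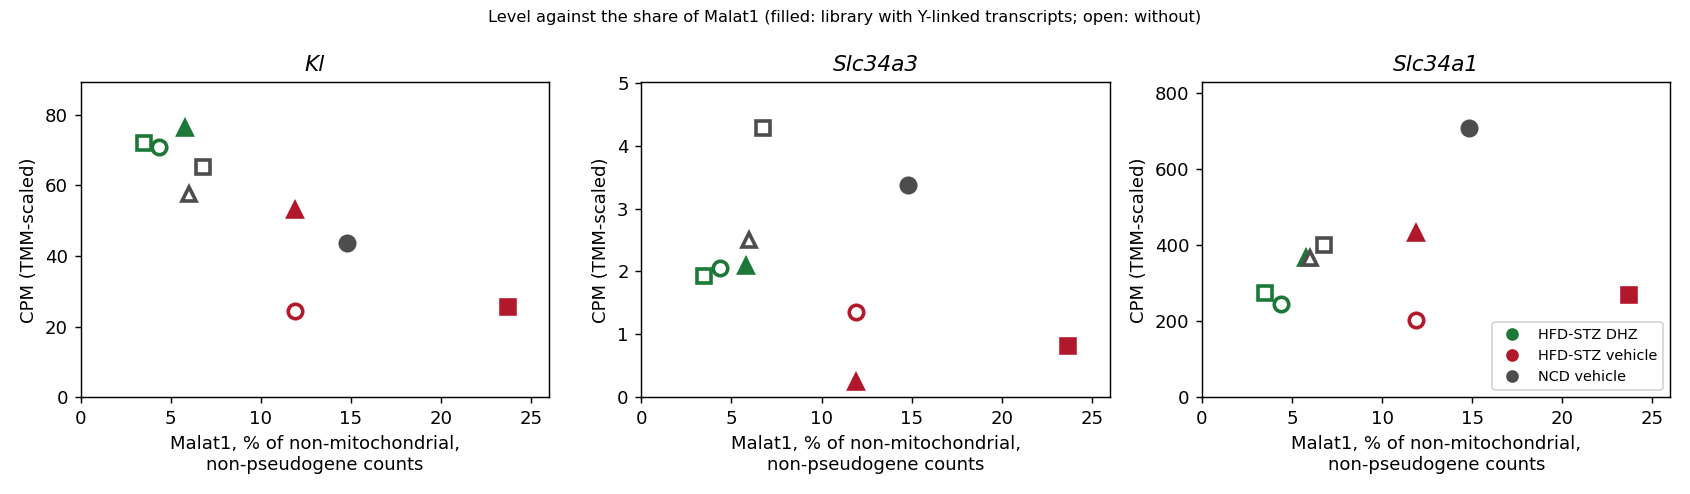
CPM of Kl, Slc34a3 and Slc34a1 (linear axes from 0) against the percentage of Malat1 among counts left without mitochondrial genes and unprocessed pseudogenes, 1 point a library, filled where Y-linked transcripts were present. HFD-STZ DHZ libraries sit at 3.49% to 5.79% Malat1 with the highest Kl, and HFD-STZ vehicle replicate 2 sits alone at 23.7%.

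Ratios between genes of the same library do not depend on how libraries are scaled to each other. Of 11 such ratios, added after the values were seen, each was compared between groups with an exact two-sided permutation test, which cannot go below p = 0.1 with 3 against 3, and no p adjusted over the 33 tests was below 0.24. Kl per 100 CPM of proximal tubule markers was 2.46, 2.35 and 2.30 in HFD-STZ DHZ, against 1.08, 0.460 and 0.933 in HFD-STZ vehicle (exact permutation p = 0.1), and 0.689, 1.75 and 1.80 in NCD vehicle. Per 100 CPM of distal convoluted and connecting tubule markers it was 4.42, 5.97 and 8.37 in HFD-STZ DHZ, against 1.82, 2.12 and 3.20 in HFD-STZ vehicle and 2.85, 3.26 and 3.55 in NCD vehicle. By both ratios the HFD-STZ DHZ libraries were above all libraries of either vehicle group (exact permutation p = 0.1, adjusted p = 0.24). Kl itself was highest in these libraries, so the ratios are no separate support.

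**Figure D4:**
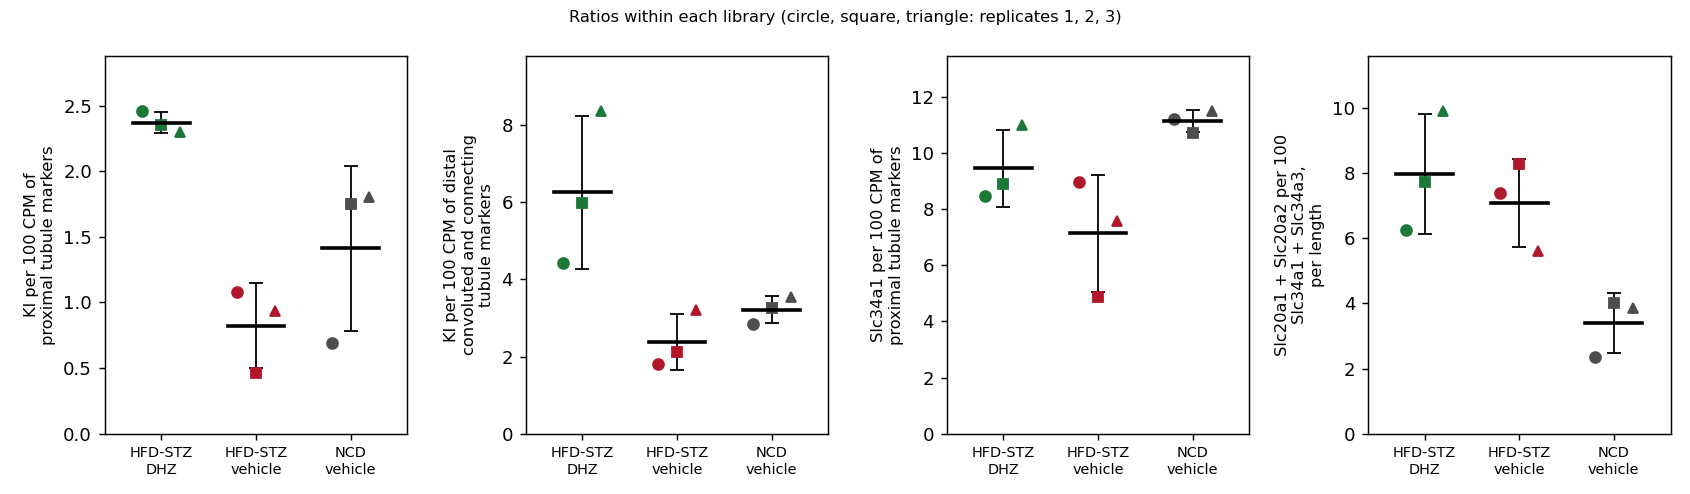
Ratios within each library (linear axes from 0), with the group mean (line) and SD (bar), n = 3. Kl relative to markers of either tubule segment is highest in the 3 HFD-STZ DHZ libraries, and the Slc20 to Slc34 ratio (5.59 to 9.90 in HFD-STZ libraries) is above the NCD vehicle libraries (2.34 to 4.00).

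The 250 bases before the start of Kl are shown because Kl was the gene called. They run over chr5:150952357-150952606 on the + strand of GRCm38.p6 (RefSeq), and capitals mark matches on either strand to the motifs searched. These were the GC box GGGCGG, the CCAAT box, the core AGGTCA that nuclear receptors bind, the core GTTAAT of sites for the proximal tubule factor HNF1, the TATA box, the cAMP response element and the E-box, the last 3 spelled out with the promoter of Slc34a3. AGGTCA and the E-box can overlap.
Kl: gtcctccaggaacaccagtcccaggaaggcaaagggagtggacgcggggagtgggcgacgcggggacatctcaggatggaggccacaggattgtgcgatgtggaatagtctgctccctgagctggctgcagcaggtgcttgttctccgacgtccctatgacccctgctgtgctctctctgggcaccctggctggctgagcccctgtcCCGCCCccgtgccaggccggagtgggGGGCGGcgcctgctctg
The capitals are 2 GC boxes, beginning 43 and 17 bases before the start. A GC box was found in 32.7% of 32851 promoter windows of this length.

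Fgfr1 encodes the receptor tyrosine kinase that binds FGF23 together with Klotho, and it is expressed in many cell types. Fgfr1 stood at 10.2, 11.4 and 12.0 CPM in HFD-STZ DHZ, against 15.3, 15.4 and 16.0 CPM in HFD-STZ vehicle and 14.2, 15.0 and 12.3 CPM in NCD vehicle. The HFD-STZ DHZ libraries were thus below every other library, an absence of overlap that 19.0% of all genes showed in this direction against HFD-STZ vehicle and 21.7% against NCD vehicle. The log2 fold change of HFD-STZ DHZ against HFD-STZ vehicle was −0.47 (SE 0.18, adjusted p = 0.072, edgeR), not called, while DESeq2 gave −0.47 (adjusted p = 0.040). With library size only the sign turned, to 0.30. HFD-STZ DHZ against NCD vehicle gave −0.31 (adjusted p = 0.25) and HFD-STZ vehicle against NCD vehicle 0.17 (adjusted p = 0.83), the groups of this last pair being apart without overlap, as for 4.83% of all genes in this direction. Set against the co-receptor within each library and per length, there were 13.6, 14.9 and 14.8 of Fgfr1 per 100 of Kl in HFD-STZ DHZ, against 58.9, 57.3 and 28.4 in HFD-STZ vehicle and 30.8, 21.7 and 20.2 in NCD vehicle. The treated libraries were lowest by this ratio (exact permutation p = 0.1 against either vehicle group, adjusted p = 0.24). This had to be so, since they held the lowest Fgfr1 and the highest Kl.

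Pth1r encodes the G protein-coupled receptor for parathyroid hormone, in the kidney mainly on proximal tubule cells. Pth1r stood at 37.7, 55.6 and 47.0 CPM in HFD-STZ DHZ, against 56.4, 36.8 and 85.2 CPM in HFD-STZ vehicle and 95.2, 76.3 and 68.5 CPM in NCD vehicle. HFD-STZ DHZ lay wholly below NCD vehicle, as for 21.7% of all genes, while HFD-STZ vehicle overlapped both. The log2 fold change of HFD-STZ DHZ against NCD vehicle was −0.77 (SE 0.30, adjusted p = 0.096), not called. It was −0.80 (adjusted p = 0.026) when only those 2 groups were fitted and −0.77 (adjusted p = 0.043) without HFD-STZ vehicle replicate 2. Without any other single library it was −0.91 to −0.63 and not called (adjusted p = 0.061 to 0.30). HFD-STZ DHZ against HFD-STZ vehicle gave −0.35 (adjusted p = 0.41), and HFD-STZ vehicle against NCD vehicle −0.42 (adjusted p = 0.76). Per 100 CPM of proximal tubule markers Pth1r was at 1.31, 1.81 and 1.42 in HFD-STZ DHZ, against 2.49, 0.668 and 1.50 in HFD-STZ vehicle and 1.51, 2.04 and 2.14 in NCD vehicle, so by this ratio the groups overlapped.

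Slc34a1 encodes NaPi-IIa, the main phosphate transporter of the proximal tubule in the mouse. Slc34a1 stood at 244, 273 and 366 CPM in HFD-STZ DHZ, against 203, 269 and 431 CPM in HFD-STZ vehicle and 708, 401 and 366 CPM in NCD vehicle. The values of HFD-STZ DHZ lay within the range of HFD-STZ vehicle, and both groups overlapped NCD vehicle at its lower end. Slc34a1 averaged 294 ± 63.8 CPM in HFD-STZ DHZ, 301 ± 117 CPM in HFD-STZ vehicle and 492 ± 188 CPM in NCD vehicle (SD, n = 3 each). The log2 fold change between the HFD-STZ groups, DHZ over vehicle, was −0.03 (SE 0.36, adjusted p = 0.96). Against NCD vehicle it was −0.74 in HFD-STZ DHZ (SE 0.36, adjusted p = 0.18) and −0.71 in HFD-STZ vehicle (SE 0.36, adjusted p = 0.70). None was called, and the SE leaves room for a difference of either sign between the HFD-STZ groups.

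Among the libraries with Y-linked transcripts Slc34a1 held 366 CPM in HFD-STZ DHZ, 269 and 431 CPM in HFD-STZ vehicle and 708 CPM in NCD vehicle. Among those without, it held 244 and 273 CPM in HFD-STZ DHZ, 203 CPM in HFD-STZ vehicle and 401 and 366 CPM in NCD vehicle. NCD vehicle was highest in either set, though each set held too few libraries to compare groups. Per 100 CPM of proximal tubule markers Slc34a1 stood at 8.47, 8.88 and 11.0 in HFD-STZ DHZ, against 8.95, 4.88 and 7.58 in HFD-STZ vehicle and 11.2, 10.7 and 11.5 in NCD vehicle. By this ratio HFD-STZ vehicle was wholly below NCD vehicle (exact permutation p = 0.1, the smallest possible) and HFD-STZ DHZ overlapped both (p = 0.3 and 0.2 by the same exact test).

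The bases before the start of Slc34a1 are shown as those of the most abundant of the 8 genes, over chr13:55399398-55399647 on the + strand of GRCm38.p6 (RefSeq). The same motifs are in capitals.
Slc34a1: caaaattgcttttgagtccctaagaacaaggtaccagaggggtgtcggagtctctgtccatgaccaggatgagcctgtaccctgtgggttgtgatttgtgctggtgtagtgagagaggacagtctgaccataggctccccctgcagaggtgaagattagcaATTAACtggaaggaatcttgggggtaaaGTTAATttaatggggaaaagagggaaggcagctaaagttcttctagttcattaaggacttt
Both matches are the HNF1 core, beginning 89 and 61 bases before the start, 1 on each strand. That core was found in 6.43% of promoter windows.

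Slc34a3 encodes NaPi-IIc, a second brush-border transporter, found mainly in deeper nephrons in the mouse. Slc34a3 stood at 2.06, 1.93 and 2.09 CPM in HFD-STZ DHZ, against 1.36, 0.809 and 0.241 CPM in HFD-STZ vehicle and 3.37, 4.28 and 2.50 CPM in NCD vehicle. The 3 groups did not overlap, with HFD-STZ vehicle lowest and NCD vehicle highest. Behind the values stood few reads, 70, 125 and 72 counts in HFD-STZ DHZ, 25, 6 and 6 in HFD-STZ vehicle and 63, 103 and 98 in NCD vehicle. The lowest value, 0.241 CPM from 6 counts, has an exact 95% Poisson interval of 0.0884 to 0.524 CPM, and the highest of that group, 1.36 CPM, one of 0.877 to 2.00 CPM (counting error only).

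In HFD-STZ vehicle against NCD vehicle Slc34a3 stood at −2.11 on the log2 scale (SE 0.48, unadjusted p = 8.3e-04, adjusted p = 0.21, edgeR), not called. DESeq2 gave −2.11 (adjusted p = 0.0063) and edgeR with no filter on low counts −2.14 (adjusted p = 7.1e-05), and the other alternatives left it uncalled. Without HFD-STZ vehicle replicate 1 it was −2.98 (adjusted p = 0.057), and without replicate 3 it was −1.57 (adjusted p = 0.31). HFD-STZ DHZ against HFD-STZ vehicle gave 1.38 (SE 0.48, adjusted p = 0.057), with DESeq2 1.38 (adjusted p = 0.027), limma-voom 1.75 (adjusted p = 0.036) and edgeR with no filter 1.47 (adjusted p = 0.0048). Without HFD-STZ vehicle replicate 1 that estimate was 2.25 (adjusted p = 0.021), and without replicate 3 it was 0.84 (adjusted p = 0.14). HFD-STZ DHZ against NCD vehicle gave −0.73 (SE 0.42, adjusted p = 0.25). Of all genes 6.56% lay without overlap below NCD vehicle in HFD-STZ vehicle, 20.9% above HFD-STZ vehicle in HFD-STZ DHZ and 21.7% below NCD vehicle in HFD-STZ DHZ. Relative to Slc34a1 in the same library and per length, Slc34a3 made 1.67, 1.40 and 1.13 per 100 in HFD-STZ DHZ, against 1.33, 0.596 and 0.111 in HFD-STZ vehicle and 0.943, 2.12 and 1.36 in NCD vehicle, so by this ratio the groups overlapped.

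The bases before the start of Slc34a3 are shown because the gene varied most across libraries. They run over chr2:25234235-25234484 on the − strand of GRCm38.p6 (RefSeq).
Slc34a3: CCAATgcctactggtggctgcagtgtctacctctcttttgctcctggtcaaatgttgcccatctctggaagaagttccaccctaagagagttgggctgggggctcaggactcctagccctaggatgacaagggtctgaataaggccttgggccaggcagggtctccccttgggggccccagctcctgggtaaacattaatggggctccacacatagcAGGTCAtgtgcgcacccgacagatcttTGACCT
The capitals are CCAAT at the far end, found in 33.8% of promoter windows, and 2 matches to AGGTCA in opposite orientation, beginning 33 and 6 bases before the start. AGGTCA was found in 14.0% of windows. The TATA box (TATAAA, 12.4% of windows) matched in none of the promoters of Kl, Slc34a1 and Slc34a3. The same held for the cAMP response element (TGACGTCA, 1.55% of windows) and the E-box (CACGTG, 6.02% of windows).

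Slc20a1 and Slc20a2 encode the type III transporters PiT-1 and PiT-2, PiT-1 found widely across cell types and PiT-2 also in the proximal tubule brush border. Slc20a1 stood at 12.5, 16.5 and 34.6 CPM in HFD-STZ DHZ, against 10.6, 19.3 and 19.1 CPM in HFD-STZ vehicle and 13.4, 11.8 and 10.3 CPM in NCD vehicle. HFD-STZ DHZ replicate 3 stood well above every other library and the groups otherwise overlapped. HFD-STZ DHZ over NCD vehicle gave 0.84 on the log2 scale (SE 0.35, adjusted p = 0.12), not called. That estimate was called under a pair of the alternatives, at 0.90 with no filter (adjusted p = 0.013) and at 0.72 with a term for Y-linked transcripts (adjusted p = 0.040). Without HFD-STZ DHZ replicate 3 it was 0.31 (adjusted p = 0.50), and without replicate 1 it was 1.12 (adjusted p = 0.099). HFD-STZ DHZ against HFD-STZ vehicle gave 0.38 (adjusted p = 0.46), which was −0.16 without HFD-STZ DHZ replicate 3, and HFD-STZ vehicle against NCD vehicle gave 0.46 (adjusted p = 0.77).

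Slc20a2 stood at 6.73, 10.0 and 10.2 CPM in HFD-STZ DHZ, against 8.29, 8.23 and 10.8 CPM in HFD-STZ vehicle and 7.27, 8.64 and 7.49 CPM in NCD vehicle, and all groups overlapped. Between the HFD-STZ groups, DHZ over vehicle, its log2 fold change was −0.02 (adjusted p = 0.95). Against NCD vehicle it was 0.20 in HFD-STZ DHZ (adjusted p = 0.55) and 0.23 in HFD-STZ vehicle (adjusted p = 0.82), with an SE of 0.22 each. Taken as a pair within each library and per length, the Slc20 transporters made 6.26, 7.73 and 9.90 per 100 of the Slc34 transporters in HFD-STZ DHZ. The same ratio was 7.37, 8.26 and 5.59 in HFD-STZ vehicle and 2.34, 4.00 and 3.85 in NCD vehicle. Both HFD-STZ groups were wholly above NCD vehicle (exact permutation p = 0.1 each, the smallest possible) and overlapped each other.

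Xpr1 encodes the exporter that lets phosphate out of cells. Xpr1 stood at 26.2, 26.0 and 26.8 CPM in HFD-STZ DHZ, against 18.7, 29.5 and 27.0 CPM in HFD-STZ vehicle and 23.7, 22.5 and 20.9 CPM in NCD vehicle. HFD-STZ DHZ was above NCD vehicle without overlap, as were 22.4% of all genes, and the log2 fold change was 0.23 (SE 0.21, adjusted p = 0.46). Against HFD-STZ vehicle HFD-STZ DHZ gave 0.07 (SE 0.21, adjusted p = 0.83), and HFD-STZ vehicle against NCD vehicle gave 0.16 (SE 0.21, adjusted p = 0.86).

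The 8 genes did not all vary together. Over the 9 libraries, which share groups and differ in depth and RNA make-up, the Pearson correlation of log2 CPM was 0.76 between Slc34a1 and Pth1r, 0.71 between Slc20a1 and Xpr1 and 0.65 between Slc20a1 and Slc20a2. It was −0.67 between Kl and Fgfr1 and 0.19 between Slc34a1 and Slc34a3. Among 5509 named protein-coding genes whose log2 CPM averaged 3 or more, those most like Kl were Hint1 (r = 0.971), Taldo1 (0.967) and Marc2 (0.963). Those most like Slc34a1 were Slc26a1 (r = 0.960), Lztr1 (0.923) and Asl (0.916), and those most like Slc34a3 were Steap2 (0.954), Fbln5 (0.927) and Igfbp3 (0.905). For Pth1r they were Pdp2 (r = 0.969), Znhit1 (0.961) and Cuta (0.961), for Fgfr1 Dhx30 (0.986), Tmem234 (0.979) and Sel1l (0.978), and for Xpr1 Slc5a8 (0.988), Wwp1 (0.983) and Tm7sf3 (0.970). For Slc20a1 they were H6pd (r = 0.951), Acat3 (0.918) and Dcdc2a (0.913), and for Slc20a2 Derl2 (0.906), Psmb5 (0.882) and Rbm22 (0.870). These genes were picked as the most correlated among 5509 over only 9 libraries, so the choice itself favours a high r. Shared regulation was not tested.

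A list of 46 other genes of the axis was examined beside the 8, of which 41 were tested. Between HFD-STZ DHZ and HFD-STZ vehicle 6 were called higher and 1 lower (10.0% and 12.0% of all genes), with a median log2 fold change of 0.41. Between HFD-STZ vehicle and NCD vehicle 0 were called in either direction (median 0.00). Between HFD-STZ DHZ and NCD vehicle 7 were called higher and 1 lower (6.31% and 7.38% of all genes, median 0.27). The hormones themselves were at or near 0, since Fgf23 had 0 counts in every library, Pth 1 count and Pthlh 3 counts in all. Klb, the co-receptor for other endocrine FGFs, and Phex, a bone peptidase of phosphate balance, had at most 4 counts in any library and were not tested either. The receptors Fgfr2, Fgfr3, Fgfr4, Casr and Vdr were tested, and 0 of these 5 were called in any comparison. Without a call, Vdr lay apart in all 3 comparisons. It held 75.9, 66.0 and 76.2 CPM in HFD-STZ DHZ, 83.4, 113 and 152 CPM in HFD-STZ vehicle and 52.6, 46.7 and 43.8 CPM in NCD vehicle. Of all genes 19.0% lay below HFD-STZ vehicle in HFD-STZ DHZ, 4.83% above NCD vehicle in HFD-STZ vehicle and 22.4% above NCD vehicle in HFD-STZ DHZ. Casr lay apart only between the HFD-STZ groups, higher with DHZ, as for 20.9% of all genes.

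Of 8 scaffolds and partners of the transporters, 1 was called higher between the HFD-STZ groups, near the 10.0% of all genes. It was Pdzk1, a PDZ scaffold that holds NaPi-IIa at the brush border, at 144, 160 and 100 CPM in HFD-STZ DHZ, against 61.2, 52.1 and 86.4 CPM in HFD-STZ vehicle and 83.2, 116 and 92.5 CPM in NCD vehicle. Its groups did not overlap in the first pair, as for 20.9% of all genes in this direction (log2 fold change 1.02, adjusted p = 0.022). The call was lost without HFD-STZ vehicle replicate 1 or 2 or HFD-STZ DHZ replicate 1 or 2 (0.87 to 0.98, adjusted p = 0.054 to 0.092). Of 3 proteases that shed Klotho, 1 was called higher against either vehicle group (10.0% of all genes against HFD-STZ vehicle, 6.31% against NCD vehicle). It was Adam10, at 28.5, 30.4 and 24.9 CPM in HFD-STZ DHZ, against 13.7, 18.1 and 11.8 CPM in HFD-STZ vehicle and 12.3, 15.7 and 15.2 CPM in NCD vehicle. The treated libraries were above all others, as for 20.9% of all genes against HFD-STZ vehicle and 22.4% against NCD vehicle. The log2 fold change was 0.95 against HFD-STZ vehicle (adjusted p = 0.011) and 0.96 against NCD vehicle (adjusted p = 0.018). The first call was lost without HFD-STZ DHZ replicate 2 (0.89, adjusted p = 0.050) and the second without HFD-STZ DHZ replicate 1 or 2 or NCD vehicle replicate 1 (0.86 to 0.95, adjusted p = 0.074 to 0.076).

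Of 14 signalling genes below PTH1R and FGFR1, 3 rose and 1 fell in HFD-STZ DHZ against HFD-STZ vehicle, beside 10.0% and 12.0% of all genes. Prkar1a, a regulatory subunit of protein kinase A, rose by 1.03 on the log2 scale (adjusted p = 0.0083), Prkacb, a catalytic subunit, by 0.86 (adjusted p = 0.019) and Dusp6, a phosphatase induced by FGF receptor signalling, by 0.80 (adjusted p = 0.032). All 3 were also called against NCD vehicle (0.82, 0.96 and 1.32, adjusted p = 0.027, 0.020 and 0.010), where 6.31% of all genes were called higher. The call of Prkar1a against HFD-STZ vehicle held without any single library. That of Prkacb was lost without HFD-STZ vehicle replicate 1 or HFD-STZ DHZ replicate 1 or 2 (0.72 to 0.86, adjusted p = 0.058 to 0.091), and that of Dusp6 without any of these or HFD-STZ vehicle replicate 3 (0.65 to 0.87, adjusted p = 0.069 to 0.12). With library size only both missed the threshold (1.67 and 1.70, adjusted p = 0.066 and 0.061), and Dusp6 did so when the HFD-STZ groups were fitted alone (0.78, adjusted p = 0.054). Against NCD vehicle, the calls of Prkacb and Prkar1a were lost without NCD vehicle replicate 1 or 2 or HFD-STZ DHZ replicate 1 or 2 (0.75 to 0.97, adjusted p = 0.071 to 0.11) and that of Dusp6 without HFD-STZ DHZ replicate 1 (1.20, adjusted p = 0.055). Gnas, which encodes the stimulatory G protein subunit used by PTH1R, fell, to 254, 276 and 308 CPM in HFD-STZ DHZ, against 570, 1117 and 606 CPM in HFD-STZ vehicle and 477, 406 and 397 CPM in NCD vehicle. HFD-STZ vehicle replicate 2 was far above the rest, and the log2 fold change was −1.45 (adjusted p = 0.010), or −0.48 (adjusted p = 0.53) with library size only. Its call was also lost without HFD-STZ DHZ replicate 1 (−1.38, adjusted p = 0.058) or 2 (−1.44, adjusted p = 0.051).

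Of 8 other phosphate handling genes tested, 1 was called higher with DHZ than with vehicle in HFD-STZ, near the 10.0% of all genes. Against NCD vehicle 2 were called higher, beside 6.31% of all genes. Galnt3, whose product glycosylates FGF23, was called higher in both comparisons (1.12, adjusted p = 0.012, and 1.13, adjusted p = 0.018). The first call held without any single library, and the second was lost without NCD vehicle replicate 1 or 2 or HFD-STZ DHZ replicate 1 or 2 (1.09 to 1.26, adjusted p = 0.055 to 0.072). Slc34a2, the intestinal and lung type II transporter NaPi-IIb, was called in HFD-STZ DHZ against NCD vehicle (2.20, adjusted p = 0.013), at 1.73, 1.43 and 3.98 CPM in HFD-STZ DHZ, 0.976, 1.08 and 1.24 CPM in HFD-STZ vehicle and 0.428, 0.499 and 0.588 CPM in NCD vehicle. The 3 groups of Slc34a2 did not overlap. Of all genes 22.4% lay without overlap above NCD vehicle in HFD-STZ DHZ, 20.9% above HFD-STZ vehicle in HFD-STZ DHZ and 4.83% above NCD vehicle in HFD-STZ vehicle. Without NCD vehicle replicate 1 the estimate of Slc34a2 was 2.11 and no longer called (adjusted p = 0.058). In the vitamin D list of 3 genes, Cyp24a1, which degrades active vitamin D, was called higher in HFD-STZ DHZ than in NCD vehicle (3.22, adjusted p = 0.022), as were 6.31% of all genes. Cyp27b1, which makes active vitamin D, was called lower (−2.78, adjusted p = 0.028), as were 7.38% of all genes. In HFD-STZ vehicle against NCD vehicle they had 3.58 (adjusted p = 0.18) and −4.14 (adjusted p = 0.19), not called. Cyp27b1 rested on few reads, 1, 16 and 16 counts in HFD-STZ DHZ, 1, 0 and 4 in HFD-STZ vehicle and 59, 26 and 40 in NCD vehicle. Cyp24a1 lost its call without HFD-STZ DHZ replicate 1 or any NCD vehicle library (2.85 to 3.34, adjusted p = 0.053 to 0.086), and Cyp27b1 without NCD vehicle replicate 1 or HFD-STZ DHZ replicate 1 or 2 (−2.77 to −2.06, adjusted p = 0.093 to 0.13). With library size only, Cyp24a1 alone of the 8 genes of these lists called against NCD vehicle kept its call.

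**Figure D5:**
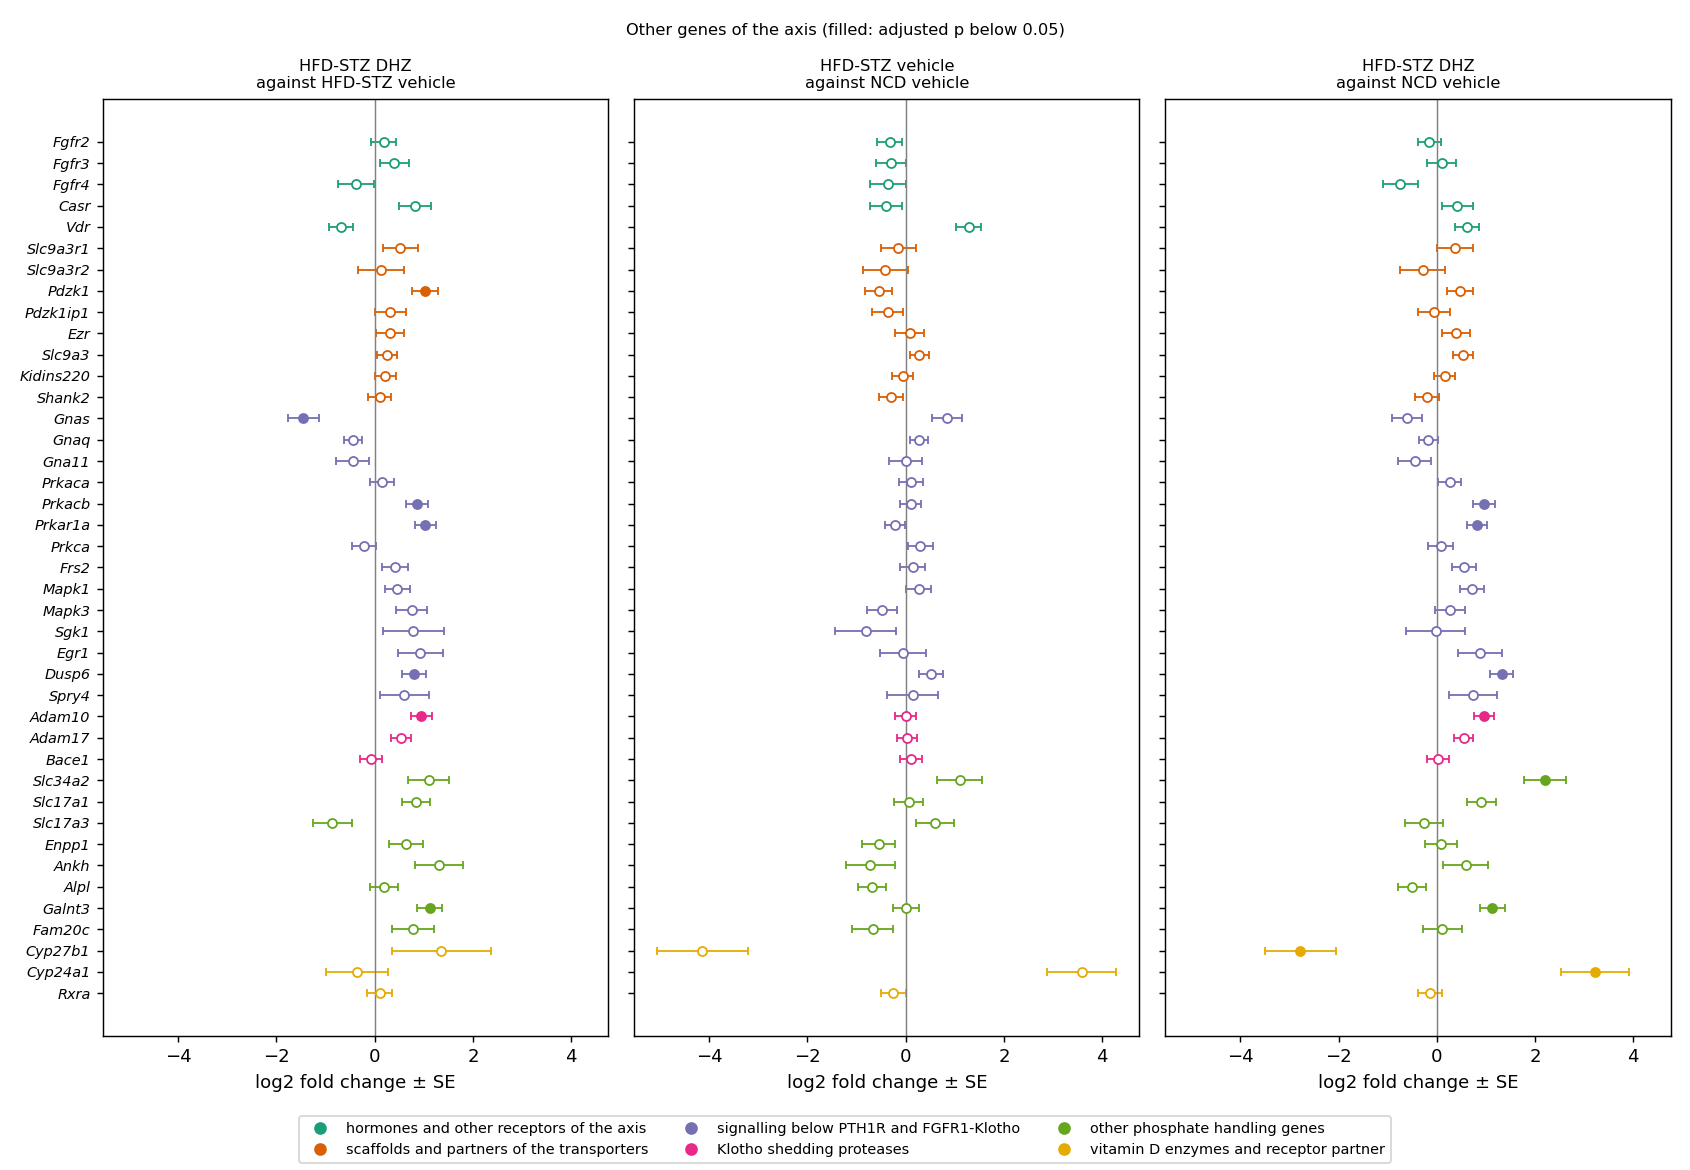
Log2 fold change ± SE of the 41 tested genes of the 6 lists of the axis in the 3 comparisons, filled where the adjusted p was below 0.05. The panel of DHZ over vehicle within HFD-STZ has 7 filled points, that of HFD-STZ vehicle over NCD vehicle has 0 and that of HFD-STZ DHZ over NCD vehicle has 8.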

How the data were processed

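RNA sequencing of whole kidney gave 9 libraries, 3 in each of 3 groups. The authors deposited raw counts per Ensembl gene as whole numbers. Libraries were stranded and made from captured mRNA, per the labels' protocols, and STAR, Trim Galore and FastQC were named with build GRCm39 in the submitters' processing notes. Neither their versions nor the annotation release, the counting program or its strand setting is given in the sources used here. Reads shared with overlapping genes of the other strand could therefore not be separated: Pfn3 covers 11.7% of the exons of Slc34a1, 9830144P21Rik and Gm4430 8.1% and 5.0% of those of Slc20a1, Myl3 3.2% of Pth1r, Gm16159 1.7% of Fgfr1 and Smim19 1.5% of Slc20a2. Symbols were matched by identifier for 99.5% of genes tested. Exon lengths and overlaps came from GENCODE on GRCm38, an older build, and promoters from RefSeq, which held 6 of the 8 genes.

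In R 4.3.3, edgeR 4.0.16 filtered genes (filterByExpr), scaled by TMM and fitted all 9 libraries with group as the only term (6 residual degrees of freedom, common dispersion 0.0893). The robust quasi-likelihood F-test was adjusted over all 17179 genes, and SEs were derived from F. Alternatives used DESeq2 1.42.0, limma 3.58.1 and the settings named in the closing section. All 8 genes are named, called or not. Genes of the 6 lists are named where called in any comparison or not tested, with the 5 receptors tested, and the 3 most similar genes per member follow Pearson correlation over the libraries. The genes, lists and tests were chosen with earlier results of these data known. Ratios were tested with SciPy 1.17.1, and figures drawn with Matplotlib 3.10.9. Counts of 0 allow up to 3 counts in a library, which is 0.0463 to 0.405 CPM, and intervals cover counting error only.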

Additional observations from a re-analysis of the deposited data

How the results depend on the processing

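Of 432 estimates of the 8 genes under the alternatives, 395 kept their direction and their side of the threshold, 11 passed it newly, 5 lost it and 21 turned round. The 5 were Kl without single libraries, as given in the report. Library size only, which moved the median of all genes to 0.81 between the HFD-STZ groups (DHZ over vehicle) and to −0.74 in HFD-STZ vehicle against NCD vehicle, turned Slc34a1 to 0.81, Slc20a2 to 0.76, Fgfr1 to 0.30 and Pth1r to 0.35 in the first comparison and Slc20a1 to −0.39, Slc20a2 to −0.53, Fgfr1 to −0.55 and Xpr1 to −0.68 in the second. The other turns were all between the HFD-STZ groups, with estimates from −0.16 to 0.33. Slc34a1 was 0.05 with no filter, 0.04 with limma-voom, 0.24 with a term for Y-linked transcripts, 0.33 without HFD-STZ vehicle replicate 3, and 0.09 and 0.03 without HFD-STZ DHZ replicates 1 and 2. Slc20a2 was 0.06 with no filter, 0.01 with the Y-linked term, 0.13 without HFD-STZ vehicle replicate 3 and 0.16 without HFD-STZ DHZ replicate 1. Without single libraries Slc34a1 ranged over −0.26 to 0.33, Slc20a2 over −0.11 to 0.16, Xpr1 over −0.12 to 0.21 (lowest without HFD-STZ vehicle replicate 1), Pth1r over −0.59 to 0.01 (highest without HFD-STZ vehicle replicate 3) and Slc20a1 over −0.16 to 0.65 (lowest without HFD-STZ DHZ replicate 3). The cause of these turns was not tested.

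Of the 8 genes, 1 was called in HFD-STZ DHZ against HFD-STZ vehicle, 2 with no filter, 3 with DESeq2, 2 with limma-voom and 0 to 1 without single libraries. In HFD-STZ vehicle against NCD vehicle the count was 0, but 1 with no filter and 1 with DESeq2, and 0 without any single library. In HFD-STZ DHZ against NCD vehicle it was 0, but 1 with no filter, 1 when only those 2 groups were fitted and 1 with the Y-linked term, and 0 to 1 without single libraries. Over all genes, 9 were called in HFD-STZ vehicle against NCD vehicle, 29 with library size only, 425 with no filter, 125 with DESeq2, 2 with limma-voom, 3 with only the 2 groups compared, 2 with the replicate number as a block, 42 with the Y-linked term and 2 to 28 without single libraries. HFD-STZ DHZ against HFD-STZ vehicle gave 3796, with 888 by library size only, 2159 with the block and 1149 to 4086 without single libraries. HFD-STZ DHZ against NCD vehicle gave 2352, with 36 by library size only, 3981 with only the 2 groups compared, 772 with the block, 3617 with the Y-linked term and 112 to 3706 without single libraries.

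Replicate numbers gave no pairing, since libraries of the same number correlated from −0.41 to 0.22 in their deviations from the group means. With the replicate block Kl had 1.16 (adjusted p = 0.034) between the HFD-STZ groups, and no call of the 8 genes changed. In the other lists the block ended the calls of Pdzk1 (1.01, adjusted p = 0.061), Prkacb (0.86, adjusted p = 0.053) and Dusp6 (0.83, adjusted p = 0.061) against HFD-STZ vehicle and of Prkacb (0.96, adjusted p = 0.057), Prkar1a (0.81, adjusted p = 0.073) and Cyp27b1 (−2.77, adjusted p = 0.075) against NCD vehicle. Of the 8 genes, Slc34a3 had the fewest counts, 6 in each of 2 libraries, and Cyp27b1 of the other lists had 0 to 4 counts in HFD-STZ vehicle.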
